A study of Mus musculus with 12 samples.

Results

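The keratin genes encode the intermediate filament proteins of epithelial cells, and they were read here in whole mouse corneas on Affymetrix arrays. Members were all genes whose only symbol in the platform table is Krt followed by digits and an optional letter, which leaves out Krtdap and the keratin-associated proteins. This gave 48 of 18194 genes on the array, measured by 61 of 45101 probe sets, and the probe set with the highest mean over the 12 arrays stood for each gene. Of the 48, 25 are type I and 23 type II keratins.

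All mice were C57BL/6J. The 8 intact samples fall into 4 genotypes with 2 biological replicates each: wild type (WT), ApoE-/- (ApoeKO), Dscr-1-/- (Dscr1KO) and the double null for both genes (double KO). Sutured corneas have 1 array each: WT and Dscr1KO at day 5, and WT and a Dscr-1 transgenic (Tg) line at day 7 after suturing. The product of Dscr-1, now called Rcan1, binds and regulates calcineurin, a phosphatase, while apolipoprotein E carries cholesterol. For the transgene the promoter is not given, nor are age, sex or pooling of animals. In RNA of a whole cornea, fewer cells of a type and less RNA per cell cannot be told apart.

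Keratin filaments are built from obligate pairs of an acidic type I and a basic type II chain, and the pair marks the kind and stage of the epithelium. Basal cells of stratified epithelia make Krt5 with Krt14, differentiating epidermis makes Krt1 with Krt10, lining mucosa makes Krt4 with Krt13, and simple epithelia make Krt8 with Krt18. Krt12 is the type I keratin of corneal epithelium, and Krt6, Krt16 and Krt17 are made by injured or rapidly renewing epithelia. The genes form a pair of clusters in the mouse, with the type I genes on chromosome 11 and the type II genes on chromosome 15. Krt18 is the type I gene that lies at the end of the type II cluster, so that 24 members lie on each chromosome.

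The upstream DNA is shown for 4 keratins that read higher in intact corneas without Dscr1 than with it (Krt10, Krt13, Krt24 and Krt76). Of these, Krt24 and Krt76 were dim, at 79.7 or less on every array. It is also shown for 2 that were bright in all samples, Krt12 of corneal epithelium and Krt5 of basal cells. Each line gives the 250 bases before the start site in RefSeq (GRCm38.p6), with matches to the TATA box TATAAA and the AP-1 motif TGANTCA, on either strand, in capitals.
Krt10, chr11:99389365-99389614, minus strand: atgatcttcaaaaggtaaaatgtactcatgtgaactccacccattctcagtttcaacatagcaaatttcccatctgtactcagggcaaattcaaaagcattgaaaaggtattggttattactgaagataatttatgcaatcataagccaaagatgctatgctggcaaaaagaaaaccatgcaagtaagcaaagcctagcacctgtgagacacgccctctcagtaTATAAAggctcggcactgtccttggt
Krt13, chr11:100121567-100121816, minus strand: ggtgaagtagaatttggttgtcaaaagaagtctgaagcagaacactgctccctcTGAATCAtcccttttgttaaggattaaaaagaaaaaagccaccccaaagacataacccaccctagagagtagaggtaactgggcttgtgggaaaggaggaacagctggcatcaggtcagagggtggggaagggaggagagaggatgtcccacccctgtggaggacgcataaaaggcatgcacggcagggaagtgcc
Krt24, chr11:99285263-99285512, minus strand: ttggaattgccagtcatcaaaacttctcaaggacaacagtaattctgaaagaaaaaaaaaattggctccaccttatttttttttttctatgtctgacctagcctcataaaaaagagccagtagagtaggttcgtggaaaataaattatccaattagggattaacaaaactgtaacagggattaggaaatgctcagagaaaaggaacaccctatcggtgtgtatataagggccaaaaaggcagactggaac
Krt76, chr15:101892921-101893170, minus strand: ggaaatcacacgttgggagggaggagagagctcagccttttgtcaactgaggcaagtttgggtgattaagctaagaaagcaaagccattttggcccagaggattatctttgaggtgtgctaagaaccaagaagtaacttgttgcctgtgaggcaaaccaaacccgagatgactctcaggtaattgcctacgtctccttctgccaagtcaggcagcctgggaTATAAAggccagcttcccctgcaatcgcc
Krt12, chr11:99422260-99422509, minus strand: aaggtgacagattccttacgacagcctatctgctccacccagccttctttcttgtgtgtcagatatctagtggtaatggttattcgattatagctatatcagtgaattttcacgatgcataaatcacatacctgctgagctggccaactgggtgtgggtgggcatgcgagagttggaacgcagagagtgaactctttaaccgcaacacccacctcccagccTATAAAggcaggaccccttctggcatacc
Krt5, chr15:101712906-101713155, minus strand: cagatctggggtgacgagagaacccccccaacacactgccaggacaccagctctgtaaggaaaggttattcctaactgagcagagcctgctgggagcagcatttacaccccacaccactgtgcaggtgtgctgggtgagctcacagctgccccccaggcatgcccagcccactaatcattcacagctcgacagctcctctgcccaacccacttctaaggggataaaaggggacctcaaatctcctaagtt

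TATAAA stood 26 bases before the start of Krt10, 29 before Krt12 and 29 before Krt76, and the 250 bases of Krt13, Krt24 and Krt5 held no match. Krt14, Krt23 and Krt42, which also rose without Dscr1, are not printed, and their 250 bases held no TATAAA. Of 32 keratin promoters in the table, 16 held TATAAA, or 50.0%, against 12.4% of all 32851 promoters of the same length. TGANTCA occurred in 1 of 32 by the first entry of each gene, that of Krt13 at 196 bases (3.12%, against 6.75% of all). The letters GGAAAA, the core bound by NFAT factors, occurred in 3 of 32 (9.38%, against 20.4% of all), Krt24 among them at 116 bases. CACCC, bound by KLF factors, occurred in 26 of 32 (81.2%, against 52.0% of all). Both strands were searched for each motif, and these matches are descriptions of the letters. The table has no entry for Krt1, Krt4, Krt16 and Krt17.

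Array medians lay between 15.6 and 21.1 intensity units, and the small number of arrays limits the precision. Apoe read 849.3 in the library labelled ApoeKO replicate 1 and 7.5 in the library labelled ApoeKO replicate 2. It read 1272 and 316.8 in Dscr1KO, whose replicate 2 carries ApoE-/- in its source label. WT arrays read 1030.5 and 776.5 for Apoe, and double KO arrays 32.5 and 22.7. Counts were therefore also taken with both of these libraries (ApoeKO replicate 1, Dscr1KO replicate 2, as labelled) left out. Xist read between 4104 and 5385.2 in both ApoeKO arrays, both Dscr1KO arrays and double KO replicate 1, and 19.6 or less on all others. Rcan1 read 581.3 to 668.2 in intact corneas with Dscr1 and 331.7 to 477.5 in those without it, 479.1 in sutured Dscr1KO, 548.3 in Tg, and 663.6 and 579.7 in sutured WT. Since the sources used here do not place its probes against the deletion, this does not test the Dscr1 labels.

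Tests used log2(intensity + 3.6) and limma, with Benjamini-Hochberg adjustment over 12706 genes and a threshold of 0.05. Of the 48 keratins, 27 passed the filter on low values and were tested, 12 of type I and 15 of type II. Of the 21 others, 19 stayed below 30 intensity units on every array, and the remaining 2 were Krt24 and Krt76. Near the filter, at 3.71 on the log2 scale, lay Krt79 just inside (mean 3.88) and Krt76 just outside (mean 3.66).

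The average effect of Dscr1 loss compared the 4 intact corneas without Dscr1 (Dscr1KO and double KO) with the 4 intact corneas with it (WT and ApoeKO). Keratins of epidermis (Krt1, Krt10), of lining mucosa (Krt4, Krt13), of basal cells (Krt14) and of injured epithelium (Krt16, Krt17) were higher without Dscr1. The corneal keratin Krt12, the basal keratin Krt5, and Krt6a and Krt6b, also of injured epithelium, did not pass the threshold. Of the 48 keratins, 9 rose and 0 fell (all genes called: 31.7%), with 5 rises among the 7 keratins taken as markers. The 9 rises are 33.3% of the 27 tested, against 16.3% rises and 15.4% falls over all genes tested. A keratin that passed the filter through its high values without Dscr1 had to differ, so this share is a description. The median change of the 27 was 0.43, against -0.02 for all genes tested. After quantile normalization 9 rose and 2 fell, the falls being Krt5 and Krt84.

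**Figure D1:**
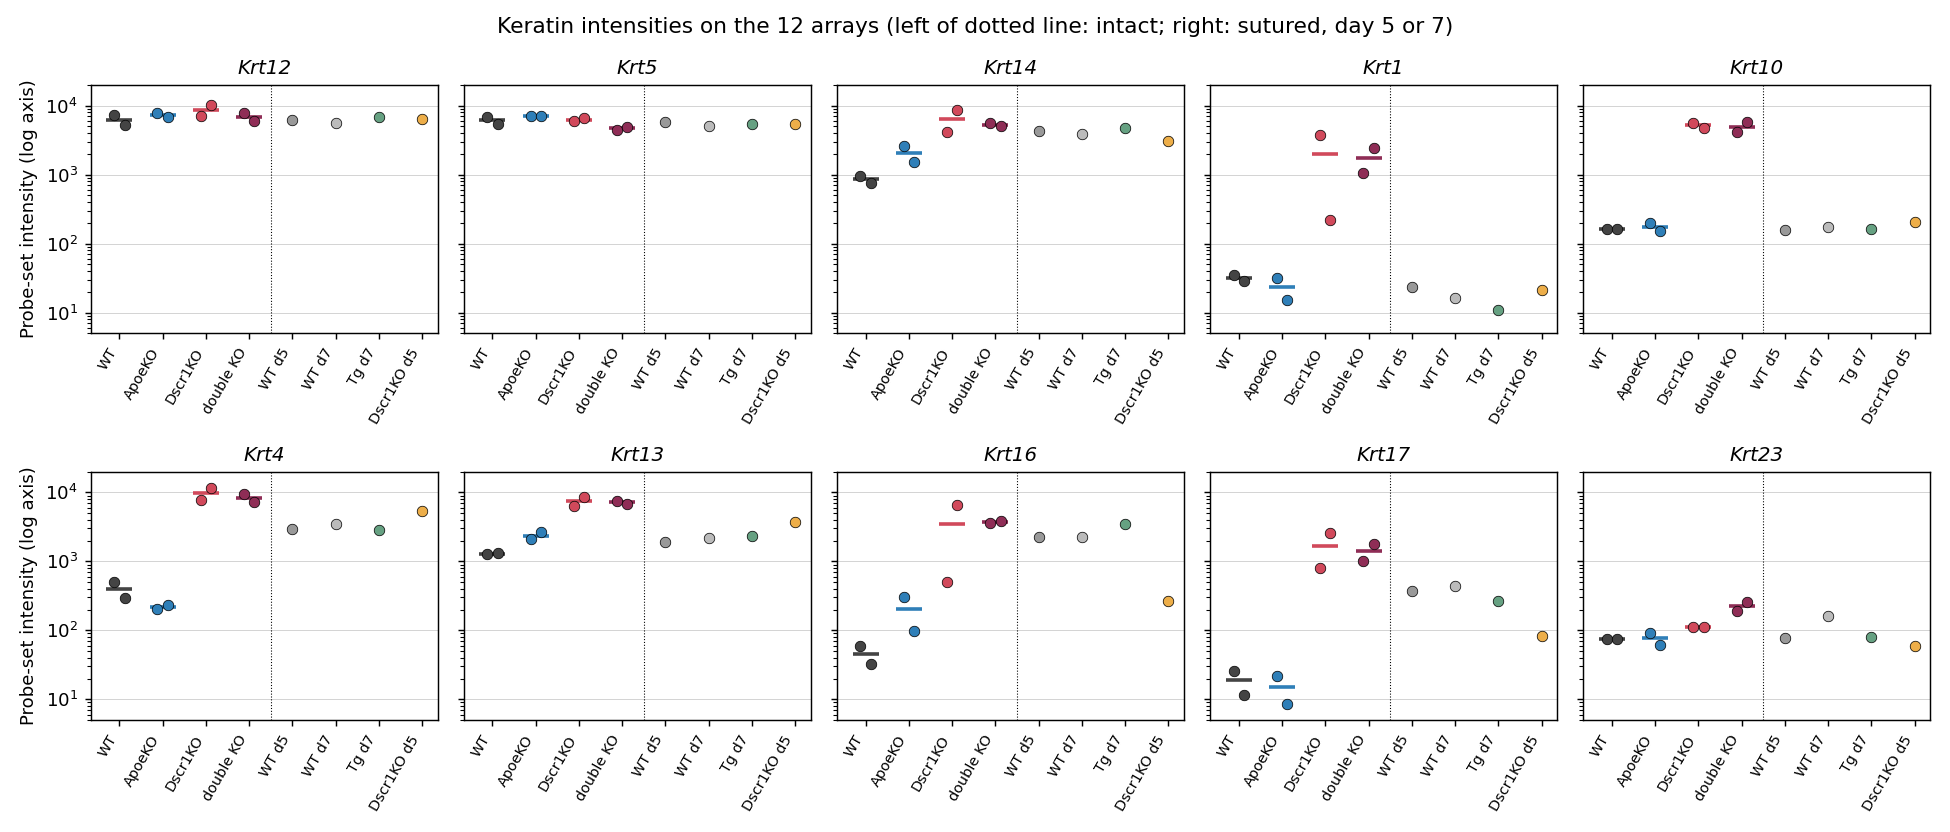
Probe-set intensity (log axis) of 10 keratins on the 12 arrays, 1 point per array, with the mean as a bar in the intact groups of 2. Krt1 and Krt10 are high only in the 4 intact arrays without Dscr1. Krt14, Krt16, Krt17 and Krt4 are also above intact WT in every sutured array. In sutured Dscr1KO these last genes lie below both intact Dscr1KO arrays. Krt12 lies between 5291.1 and 10080.3 and Krt5 between 4421.4 and 7204.8 on the 12 arrays.

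Krt10, the type I chain of differentiating epidermis, read 164.6 and 164.2 in WT and 197.1 and 153.5 in ApoeKO. It read 5532.2 and 4789.1 in Dscr1KO, with 4129.9 and 5826.7 in double KO, so the lowest array without Dscr1 stood far above the highest with it. The average rise was 4.86 ± 0.15 (SE, 4 against 4 arrays, limma adjusted p = 2.77e-06), and it was the keratin with the lowest p in this comparison. Group means were 164 ± 0.283 in WT, 175 ± 30.8 in ApoeKO, 5161 ± 525 in Dscr1KO and 4978 ± 1200 in double KO (SD, n = 2).

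Krt1, its type II partner, read 35.5 and 28.3 in WT and 31.4 and 15.2 in ApoeKO. It read 3806 and 221.5 in Dscr1KO, while in double KO it was 1040.8 and 2418.9. The groups did not overlap, but the Dscr1KO replicates lay 4.08 apart on the log2 scale, where those of Krt10 lay 0.21 apart. The rise of Krt1 was 5.33 ± 0.79 (limma adjusted p = 0.00229). Krt2, another epidermal type II keratin, stayed between 0.4 and 6.3 on all 12 arrays, and Krt77 between 0.5 and 16.6. Neither passed the filter.

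Krt4, the type II chain of lining mucosa, read 506.3 and 294.4 in WT and 205.8 and 233.9 in ApoeKO. It read 7769.4 and 11727.8 in Dscr1KO, with 9577.1 and 7276.4 in double KO, with no overlap, and rose by 4.92 ± 0.21 (limma adjusted p = 1.34e-05). A second Krt4 probe set rose by 5.75 ± 0.20. Its partner Krt13 read 1269 and 1311.5 in WT, 2115.4 and 2630.3 in ApoeKO, then 6426.2 and 8632.2 in Dscr1KO, with 7478.5 and 6861.9 in double KO. Krt13 rose by 2.06 ± 0.13 (limma adjusted p = 7.93e-05), and its ApoeKO arrays lay between WT and the arrays without Dscr1.

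Krt14, the basal type I chain, read 958.1 and 761.1 in WT and 2615.9 and 1532.9 in ApoeKO. Dscr1KO arrays read 4200.4 and 8672.1 for it, double KO arrays 5525.7 and 5065.2. The average rise was 2.11 ± 0.26 (limma adjusted p = 0.00105), and 2 dimmer probe sets of Krt14 rose by 2.74 ± 0.28 and 1.41 ± 0.21. Its partner Krt5 read 6860.2 and 5464.8 in WT, 7204.8 and 7098.4 in ApoeKO, then 6037.4 and 6525 in Dscr1KO, with 4421.4 and 4925.2 in double KO. The difference of -0.29 ± 0.12 in Krt5 did not pass (limma adjusted p = 0.0943), and its groups overlap. The 2 chains of the basal pair thus differed in their tests, Krt14 passing and Krt5 not, while the difference between them was not tested.

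Krt16 read 59.4 and 32.7 in WT and 307.1 and 99.3 in ApoeKO. It read 496.1 and 6480.8 in Dscr1KO, with 3624 and 3832 in double KO. The rise was 4.81 ± 0.74 (limma adjusted p = 0.00271), with Dscr1KO replicates 3.70 apart on the log2 scale. Replicate 2 was the higher array for Krt16 and replicate 1 for Krt1. Krt17 read 26.1 and 11.6 in WT, 21.6 and 8.5 in ApoeKO, then 807 and 2591.3 in Dscr1KO, with 1010.6 and 1794.8 in double KO. It rose by 6.18 ± 0.44 (limma adjusted p = 0.00011), with every array without Dscr1 above every array with it. Krt14, Krt16 and Krt17 are close relatives and lie next to each other in the order of keratin genes on chromosome 11. How far their probe sets share signal was not tested.

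Krt23, a type I keratin, read 73.8 and 74 in WT, 92.7 and 61.9 in ApoeKO, then 110.8 and 112.4 in Dscr1KO, with 187.7 and 256 in double KO. It rose by 1.03 ± 0.17 (limma adjusted p = 0.00407), with no overlap between the arms. Krt42, which follows Krt17 on the chromosome, rose by 0.63 ± 0.16 (limma adjusted p = 0.0198). Its dimmer probe set gave -0.22 ± 0.23, so the 2 probe sets of Krt42 disagree in sign. The brighter one is of the kind Affymetrix marks with an x, in which some probes also match other transcripts, as are the ones used for Krt4, Krt14 and Krt76.

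Krt12 read 7260.9 and 5291.1 in WT and 7884 and 6802.8 in ApoeKO. It read 7192 and 10080.3 in Dscr1KO, with 7841.2 and 6034.1 in double KO. The arms overlap, and the difference was 0.18 ± 0.17 (limma adjusted p = 0.449). Krt6a and Krt6b, near-identical type II genes of wound-edge epithelium, differed by 0.21 ± 0.16 and 0.17 ± 0.16 (limma adjusted p = 0.336 and 0.454). Among the 9 keratins with several probe sets, 1 dimmer probe set of Krt6a rose by 0.37 ± 0.12 (limma adjusted p = 0.0468, over all probe sets), just past the threshold. Signal of Krt6a and Krt6b cannot be told apart with certainty.

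**Figure D2:**
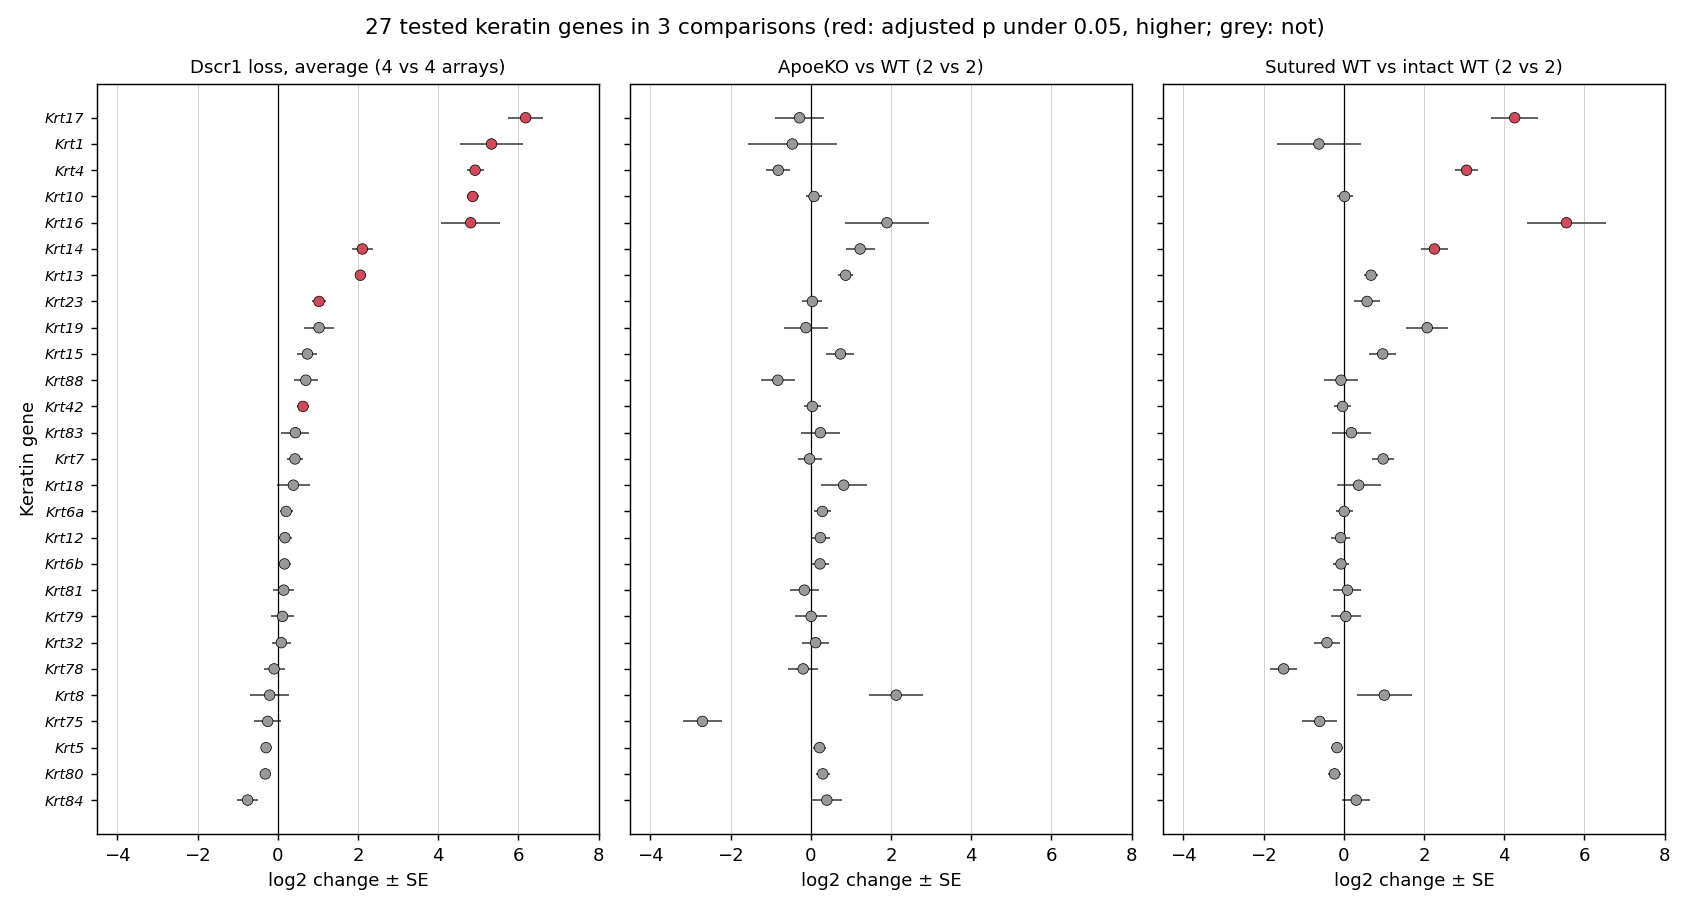
The log2 change with its SE for the 27 tested keratins in 3 comparisons, with red points for rises past the threshold and grey points for the rest. The average of Dscr1 loss has 9 red points, ApoeKO against WT has none, and suturing in WT has 4 (Krt4, Krt14, Krt16 and Krt17).

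Krt24 and Krt76 are described because their values stood apart, so they were chosen after these were seen. Krt24, a type I keratin, read 1.1 and 4.4 in WT and 4.2 and 1.4 in ApoeKO, against 61.3 and 18.7 in Dscr1KO, with 70.5 and 62.6 in double KO. Krt76, a type II keratin of the palate, read 0.4 and 1.2 in WT and 5.5 and 7.9 in ApoeKO, against 79.7 and 35.5 in Dscr1KO, with 20.7 and 41.4 in double KO. With no filter, Krt24 rose by 3.06 ± 0.39 and Krt76 by 2.70 ± 0.34 in the average (limma adjusted p = 0.0014 and 0.00134). Both are at or near the added constant of 3.6 with Dscr1 present, so these sizes depend on it.

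Of the other tested keratins, Krt15, made by basal cells of the limbus, read 2331.4 and 1596.3 in WT, 2806 and 3726.5 in ApoeKO, then 5344.4 and 2550.6 in Dscr1KO, with 5145.5 and 4338.4 in double KO. The difference was 0.74 ± 0.25 (limma adjusted p = 0.0547), and it passed without Dscr1KO replicate 2, at 1.01 (0.00617), and with the replicate number as a block (0.0477). Krt19, of simple and mucosal epithelia, read 260.7 and 193.7 in WT, 233.2 and 183 in ApoeKO, then 672 and 165.4 in Dscr1KO, with 567 and 617 in double KO. Its difference was 1.03 ± 0.38 (limma adjusted p = 0.0753), with Dscr1KO replicate 2 the lowest of the 8 arrays. Without that library Krt19 passed, at 1.53 (limma adjusted p = 0.000607), and without Dscr1KO replicate 1 it passed at the smaller value of 0.53 (0.0247).

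Hair keratins carried little signal. Of 20 keratins of the hair shaft and its sheaths, 5 passed the filter, and the highest value on any array was 46.7, for Krt75 in WT replicate 1. Krt81 reached 33.8 and the other 18 stayed below 30. Foxn1, a hair follicle transcription factor, rose by 2.09 ± 0.30 (limma adjusted p = 0.00218), while Hoxc13, which drives hair keratins, read 8.5 or less on every array.

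**Figure D3:**
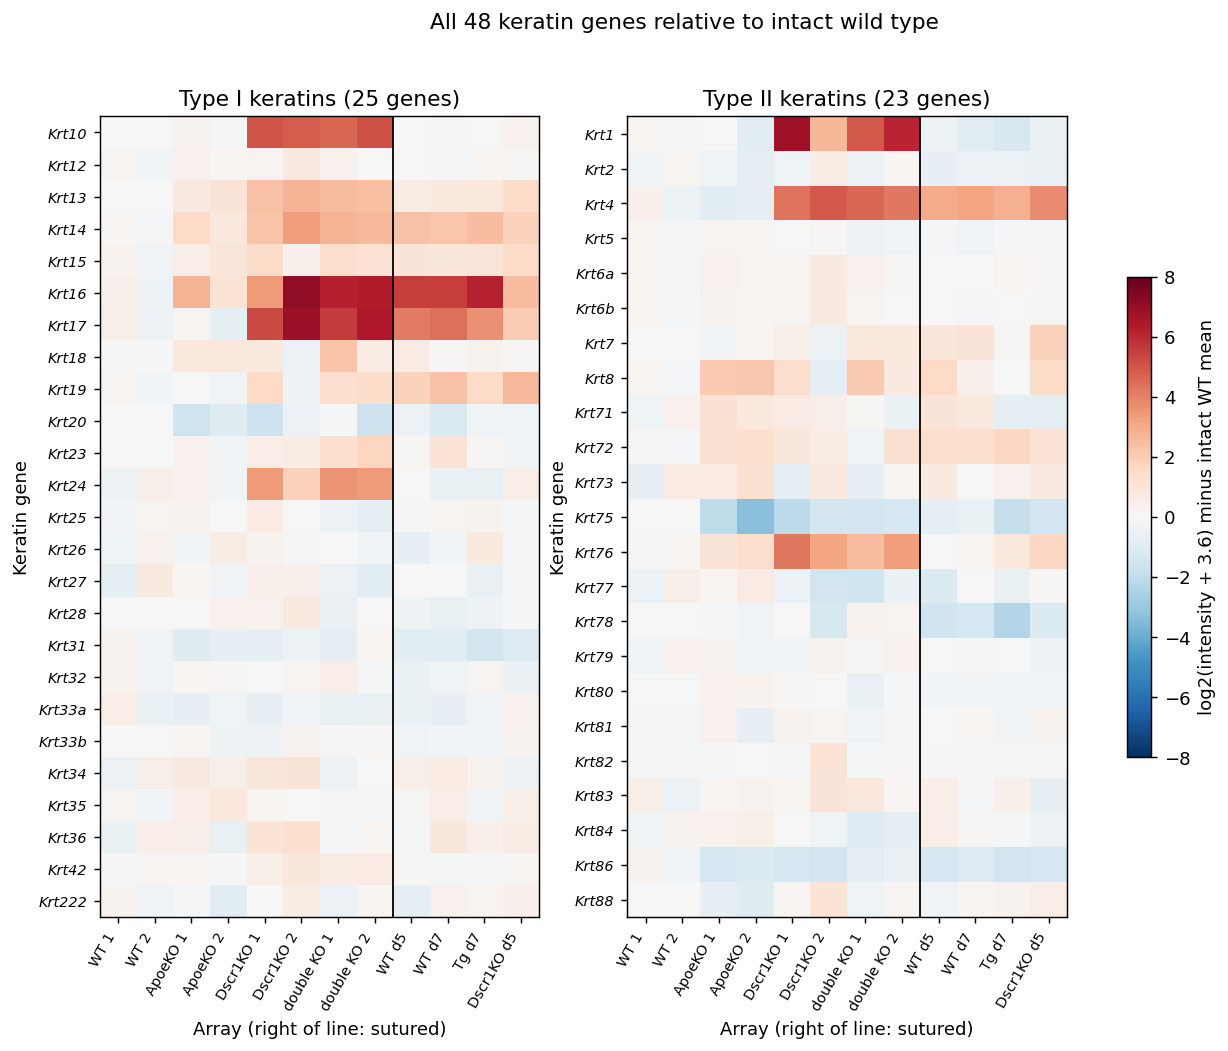
The log2 value of all 48 keratins on each of the 12 arrays minus the intact WT mean, with blue for lower and red for higher, split by type. Krt1, Krt10, Krt24 and Krt76 are reddest in the 4 intact arrays without Dscr1, with Krt76 also pale red in both ApoeKO arrays (5.5 and 7.9) and in sutured Dscr1KO (10.1), and most hair keratins are pale throughout.

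Within single contrasts, Dscr1KO against WT gave 7 rises and 0 falls among the keratins, against 7.86% rises and 3.9% falls over all genes. Xist read 4104 and 5385.2 in Dscr1KO and 14.9 and 8.9 in WT. Dscr1 genotype and the Xist difference thus cannot be told apart in this contrast. Rises were seen for Krt1 (4.71), Krt10 (4.94), Krt4 (4.61), Krt13 (2.53), Krt14 (2.82), Krt16 (5.23) and Krt17 (6.09). After quantile normalization there were 7 rises and 1 fall, that of Krt75. Without Dscr1KO replicate 1 the count was 11, with Krt6a, Krt6b and Krt42 added as rises and Krt78 as a fall. Double KO against ApoeKO gave 8 rises and 3 falls, against 11% rises and 8.61% falls over all genes. The rises were led by Krt17 (6.27), Krt1 (5.95), Krt4 (5.23), Krt10 (4.79) and Krt16 (4.38). The falls were Krt5 (-0.62 ± 0.16, limma adjusted p = 0.0362), Krt80 (-0.67 ± 0.17, 0.031) and the hair keratin Krt84 (-1.31 ± 0.37, 0.0429). Krt84 was dim, at 17.9 and 19.9 in ApoeKO and 4.7 and 6.3 in double KO, within or below the range of array medians. Without ApoeKO replicate 1, ApoeKO replicate 2, double KO replicate 1 or double KO replicate 2, the 11 calls became 6, 4, 6 and 6. With the replicate number as a block the falls of Krt5, Krt80 and Krt84 did not pass.

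The direct comparison of double KO with WT gave 9 rises and 0 falls, against 11.4% rises and 8.74% falls over all genes, 20.1% in all. After quantile normalization 9 rose and Krt5 fell. Krt15 passed here, at 1.29 ± 0.35 (limma adjusted p = 0.0373), next to the 7 named for Dscr1KO and Krt23 (1.52). The count was 5 without WT replicate 2.

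Apoe loss was asked about in ApoeKO against WT and in double KO against Dscr1KO. Both comparisons hold a library of doubtful Apoe level, which limits what they say about Apoe loss. These are ApoeKO replicate 1, where Apoe read 849.3, and Dscr1KO replicate 2, with ApoE-/- in its source label. Xist read 4622.1 and 4598 in ApoeKO and 14.9 and 8.9 in WT. Apoe genotype and the Xist difference thus cannot be told apart in ApoeKO against WT. No keratin passed in either comparison, where all genes gave 0.0236% in each. At an unadjusted p under 0.05 there were 5 of 27 keratins in each (18.5%), against 3.75% of all genes tested for ApoeKO against WT and 10.7% for double KO against Dscr1KO. In ApoeKO against WT these were Krt13 (0.87 ± 0.19, limma adjusted p = 0.476), Krt14 (1.23 ± 0.36, 0.816), Krt8 (2.13 ± 0.67, 0.94), Krt4 (-0.81 ± 0.30, 1) and Krt75 (-2.70 ± 0.48, 0.302). Fitted on these 4 arrays alone, Krt8, Krt13 and Krt14 passed as rises and Krt75 as a fall. Without Dscr1KO replicate 1, Krt7, Krt19 and Krt78 passed as rises in double KO against Dscr1KO.

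Krt8, the type II chain of simple epithelia, read 32.3 and 25.1 in WT and 134.1 and 140.1 in ApoeKO, with no overlap. It read 81.7 and 15.7 in Dscr1KO, with 130.7 and 49.5 in double KO. Its partner Krt18 read 40.9 and 35.5 in WT, 70.6 and 69.7 in ApoeKO, then 68.7 and 26.9 in Dscr1KO, with 200.2 and 58.3 in double KO, where replicate 1 was the highest of the 12 arrays. That array also carried photoreceptor markers, with a sum of 3259.8 over 5 genes against 261.8 or less elsewhere; the part of this in the Krt18 value was not tested. Krt75, a hair follicle and nail-bed keratin, read 46.7 and 42.8 in WT and 14.8 or less on the 6 other intact arrays. In the sutured corneas Krt75 read 26.2 and 30.4 in WT, 9.6 in Tg and 12.8 in Dscr1KO.

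The interaction of Dscr1 and Apoe loss was called in no keratin, where 0.00787% of all genes passed. Without adjustment, 6 of 27 keratins (22.2%) and 7.57% of all genes tested had a p under 0.05, with Krt75 (3.05 ± 0.67, limma adjusted p = 0.419) and Krt14 (-1.42 ± 0.51, 0.615) among the keratins. Without Dscr1KO replicate 1 the interaction passed for Krt78, at 1.71. A difference between the Dscr1 contrasts with and without Apoe was thus not detectable for these keratins with 2 arrays per group. Both libraries of doubtful Apoe level enter this test.

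Suturing was read in WT, with the arrays at days 5 and 7 taken as one group against the 2 intact WT arrays, all with Xist at 14.9 or less. This comparison shares the intact WT arrays with the Dscr1 and Apoe contrasts. Krt4, Krt14, Krt16 and Krt17 rose, which makes 4 rises (14.8%) and 0 falls among the 27 tested keratins. Over all genes tested, 1.45% rose and 0.118% fell, 1.57% in all. Krt16 read 2230 at day 5 and 2239.7 at day 7, against 59.4 and 32.7 intact, a rise of 5.55 ± 0.98 (limma adjusted p = 0.0278). Krt17 read 367.7 and 442.8, a rise of 4.26 ± 0.58 (limma adjusted p = 0.012). Both days gave nearly the same value for each gene.

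Krt4 read 2983.2 at day 5 and 3528.5 at day 7, a rise of 3.06 ± 0.28 (limma adjusted p = 0.00515). Krt14 read 4278.5 and 3932.2, a rise of 2.26 ± 0.34 (limma adjusted p = 0.0173). The epidermal pair was not raised past the threshold: Krt10 read 159.5 and 173.8 (0.02 ± 0.20, limma adjusted p = 0.979), and Krt1 read 23.2 and 16 (-0.62 ± 1.05, 0.831). Krt24 and Krt76 read 2.7 or less. Krt19 read 813.7 and 1140.4 (2.08 ± 0.52, limma adjusted p = 0.0925), and Krt78, of differentiated stratified epithelium, read 242 and 266.4 against 731.3 and 718.3 intact (-1.50 ± 0.34, limma adjusted p = 0.0696). Krt12 differed by -0.08 ± 0.23 and Krt5 by -0.17 ± 0.16.

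The number of calls in this comparison rests on single arrays. It was 1 without intact WT replicate 1, 0 without intact WT replicate 2, 2 without the day 5 array and 1 without the day 7 array. On the 4 WT arrays alone 8 passed, with Krt7, Krt13 and Krt19 added as rises and Krt78 as a fall. With Dscr1KO arrays included and Dscr1 genotype as a term, 0 passed, and the change in Krt16 was 2.23. That fit takes 1 suturing change for both genotypes, while Krt16 in Dscr1KO at day 5 differed from the intact Dscr1KO mean by -2.75. It therefore does not isolate suturing in WT.

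Sutured corneas without Dscr1 or with the transgene have 1 array each, so differences are values with no test. Dscr1KO at day 5 read 263.6 for Krt16 and 82.1 for Krt17, where WT at day 5 read 2230 and 367.7, log2 differences of -3.06 and -2.12. These and Krt83 (-1.13) were the 3 keratins lower by at least 1 on the log2 scale, with 0 higher. Over all genes, 1.93% were lower and 4.17% higher. Krt83 was dim, at 4.5 against 14.1, both below every array median. The neutrophil sum, over 4 genes and mostly S100a8 and S100a9, was 1121 in Dscr1KO at day 5 and 10864.5 in WT at day 5. The receptor genes in the sum were not lower: Csf3r read 70.8 against 62.9 and Cxcr2 17.8 against 13.6. The part of the difference in this sum in the keratin values was not tested.

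Dscr1KO at day 5 read 207.5 for Krt10 and 21.1 for Krt1, against 4789.1 and 221.5 in the lower of the intact Dscr1KO arrays. The log2 differences from the intact Dscr1KO mean were -4.61 for Krt10, -5.23 for Krt1, -4.08 for Krt17, -2.75 for Krt16 and -1.01 for Krt13. In all, 6 keratins were lower and 3 higher by at least 1, where 5.09% of all genes were lower and 4.86% higher. The 3 were Krt19 (2.03), Krt7 (1.85) and Krt8 (1.12), while Krt18, the partner of Krt8, differed by -0.05. The intact Dscr1KO replicates themselves lay 3.70 apart for Krt16. For Krt8 they read 81.7 and 15.7, and the sutured Dscr1KO array read 84.7. Krt4 read 5305.7 and Krt13 3698.8, the highest of the sutured arrays for both. This array had Xist at 6, and the intact Dscr1KO arrays had it at 4104 and 5385.2, so suturing and the Xist difference cannot be told apart here.

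The Tg cornea at day 7 read 3436.5 for Krt16 and 268.9 for Krt17, against 2239.7 and 442.8 in WT at day 7. Krt75 was the 1 keratin lower by at least 1 (-1.36), with 0 higher, where 3.53% of all genes were lower and 0.756% higher. Between WT at day 7 and day 5, Krt23 was higher by 1.01 and Krt8 lower by 1.18, where 3.32% of all genes were higher and 2% lower.

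The genes that work with keratins were counted from 4 lists in the average of Dscr1 loss, where 16.3% of all genes tested rose and 15.4% fell. Of 12 tested genes of the cornified envelope and filaggrin family, 9 rose and 1 fell, with a median of 4.84. Lor, the envelope protein loricrin, rose by 9.45 ± 0.20 and Krtdap by 9.16 ± 0.48 (limma adjusted p = 9.75e-07 and 3.53e-05), while the envelope precursor Ivl fell by 0.84 ± 0.19 (0.0123). Of 20 tested desmosome and hemidesmosome genes, which anchor keratin filaments, 1 rose and 7 fell, with a median of -0.32. The rise was Dsc1, a desmocollin of upper epidermis (5.02 ± 0.22, limma adjusted p = 1.66e-05), and the largest falls were the desmoglein gene Dsg1a (-1.83 ± 0.31, 0.00404) and the plakophilin gene Pkp2 (-1.12 ± 0.23, 0.00953). Of 18 tested transcription factors of keratin-making epithelia, 2 rose and 6 fell, with a median of -0.25. Pax6, which the corneal epithelium requires, fell by 1.18 ± 0.27 (limma adjusted p = 0.0135) and Elf3 by 0.96 ± 0.15 (0.00249), while Nfe2l2 rose by 0.69 ± 0.13 (0.00604). Of 10 tested intermediate filament genes other than keratins, 3 rose and 2 fell, with Vim, the filament of mesenchymal cells, up by 1.01 ± 0.22 (limma adjusted p = 0.0115) and the lens gene Bfsp2 at -1.27 ± 0.28 (0.0122). In ApoeKO against WT and in suturing, 0 genes of any of the 4 lists passed.

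Markers of other tissues moved with the keratins. Keratins were left out of these sums. For eyelid epidermis (4 genes) the sum lay between 27 and 35.9 in intact corneas with Dscr1, between 2445.7 and 7688.5 without it, and between 22.1 and 42.1 after suturing, and 3 of 4 genes rose. Lor read 3.1 or less on all arrays but those 4. For conjunctiva, 4 of 5 genes rose and 1 fell, and the goblet cell mucin Muc5ac read 7.5 or less with Dscr1 and after suturing, against 354.8 and 102.6 in Dscr1KO, with 388.7 and 106.7 in double KO. The conjunctiva sum, mostly Muc4, lay between 3337.4 and 5365.2 without Dscr1 and between 4568.6 and 6050.7 with it. The neutrophil sum (4 genes, mostly S100a8 and S100a9) lay between 106.8 and 266.4 with Dscr1 and between 8471.8 and 19523.8 without it. Of its genes, 4 of 4 rose. The part of eyelid skin, conjunctiva or leukocytes in the keratin values was not tested.

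**Figure D4:**
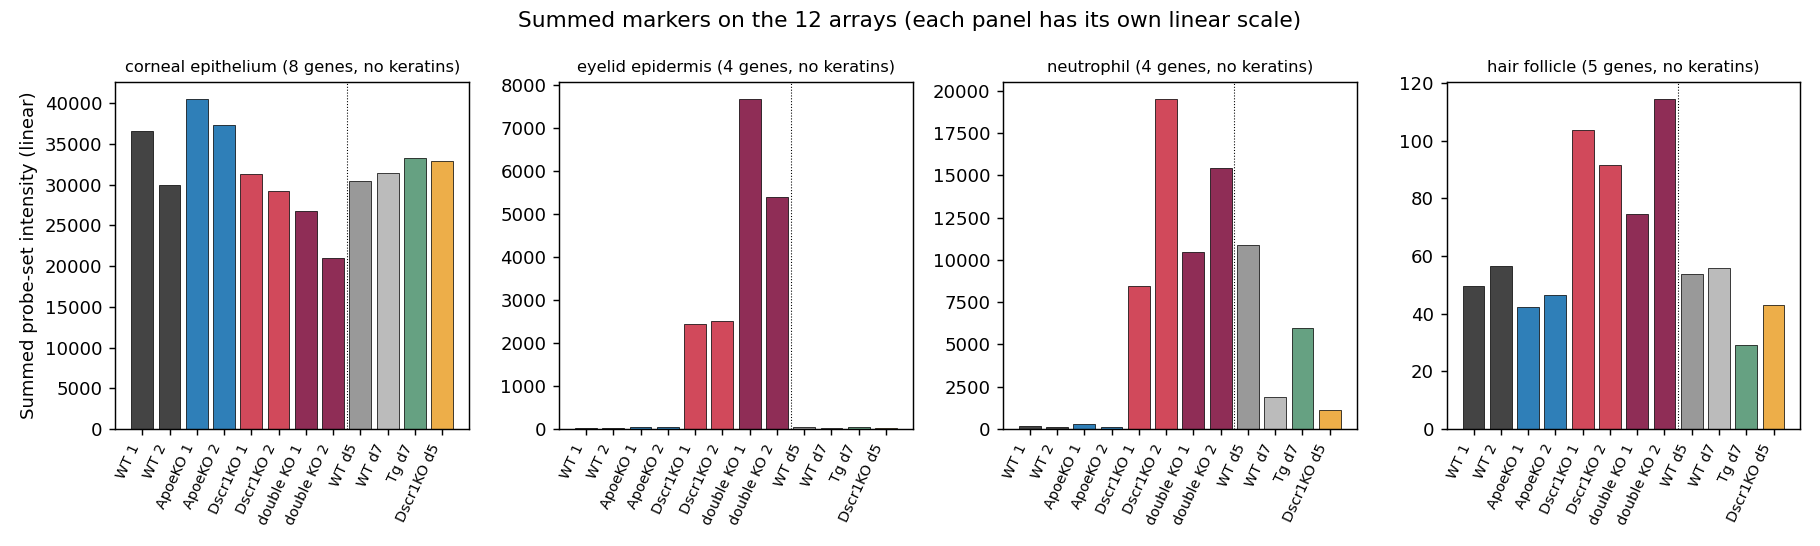
Summed linear intensity of 4 marker lists without keratins on each of the 12 arrays, each panel with its own scale from 0. The eyelid epidermis sum is 2445.7 or more in the 4 intact arrays without Dscr1 and 42.1 or less elsewhere, while the corneal epithelium sum lies between 20983.7 and 40541.9 on all arrays.

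Corneal identity was present in all samples. For corneal epithelium (8 genes) the sum lay between 29990.9 and 40541.9 with Dscr1 and between 20983.7 and 31362.2 without it, where 3 of 8 fell. Stroma (8 genes) had 2 rises and 2 falls, and corneal endothelium had 5 falls of 6. Macrophage genes rose in 5 of 6 cases and blood endothelial genes in 4 of 5. Lens and pigment cell genes fell in 7 of 9 and 5 of 5 cases. The lens sum read 7638.2 and 5569.2 in WT, 530.8 and 115.7 in ApoeKO, and 647.2 or less on the intact arrays without Dscr1. Of the hair follicle list, 1 of 4 tested genes rose. Of the sebaceous and meibomian list 1 of 2 rose and 1 fell, and of the skeletal muscle and photoreceptor lists 0 of 2 passed in each.

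Within the 5 intact arrays with Xist, the average of Dscr1 loss was replaced by 3 arrays without Dscr1 against the 2 ApoeKO arrays. The 3 were both Dscr1KO arrays and double KO replicate 1. By group label ApoeKO lacks Apoe and Dscr1KO has it, so Apoe genotype is mixed into this difference. There 5 keratins passed, all as rises: Krt1, Krt4, Krt10, Krt13 and Krt17. Krt14 (1.55, limma adjusted p = 0.0607), Krt16 (3.67, 0.0999), Krt23 (0.78, 0.194) and Krt42 (0.62, 0.155) kept their direction without passing. Without the libraries labelled ApoeKO replicate 1 and Dscr1KO replicate 2, 11 keratins rose, with Krt7, Krt15 and Krt19 added and Krt42 not passing (0.60, limma adjusted p = 0.0643).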

How the data were processed

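RNA of 12 whole corneas was measured on Affymetrix arrays, from 100 ng of total RNA per the labels' protocols. The deposited values are linear probe-set intensities. Once 2% is trimmed from both ends, the mean, averaged over the 12 arrays, is 100. Scaling by the authors was not checked array by array. No source used here names the signal software. Groups follow the labels, and no array was moved for its values. Symbols came from the platform table: 34958 probe sets carry 1 symbol, 932 several and 9211 none. The 1 probe set that names Krt17 and Krt14 together was not used. RefSeq (GRCm38.p6) served for names, gene order and promoters.

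The 20th percentile of the table, 3.6, was added before taking log2. Genes were tested where their mean reached the 40th percentile over probe sets, using limma 3.58.1 (R 4.3.3) on group means with a trend of variance on intensity. Calls are Benjamini-Hochberg adjusted p-values under 0.05. The 8 intact arrays share a spread, to which the 2 sutured WT arrays were added for suturing. Single arrays were compared without a test. Where samples of a group were not separate animals, p-values measure only the spread between these samples. No 2 arrays held the same values.

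Keratins named in every sample were the 7 given as markers and those past the threshold in the average of Dscr1 loss with a change of at least 1, or in suturing. Of pathway genes, the 2 largest rises and falls were eligible. The members and the lists (4 of pathways, 15 of markers, 1 of them the 7 keratins) were chosen with earlier results of these data known. The fit was tested on simulated data. Alternatives were other filters, pseudocounts of 0.6 and 8.1, quantile normalization, no trend, fewer groups, a replicate block, single probe sets, and arrays left out.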

Additional observations from a re-analysis of the deposited data

Results flagged for a closer look

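Krt24 and Krt76 lie outside the tests because their mean fell under the filter on low values, yet they were above the arrays with Dscr1 on every intact array without it. The lowest such array read 18.7 for Krt24, against 4.4 at most with Dscr1, and 20.7 for Krt76, against 7.9 at most. No array of the 10 keratins given in every sample stood apart from the other 3 of its arm by Dixon's criterion, over 20 arms tested, where chance gives about 1 in 20. No keratin passed the interaction test.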

How the results depend on the processing

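Counts of keratins called moved with single arrays and with the choice of arrays fitted. Leaving out 1 array gave between 8 and 12 for the average of Dscr1 loss (9), 5 and 11 for Dscr1KO against WT (7), 4 and 6 for double KO against ApoeKO (11), 5 and 8 for double KO against WT (9), 0 and 3 for double KO against Dscr1KO (0), 0 and 1 for the interaction (0), and 0 and 2 for suturing (4). ApoeKO against WT stayed at 0 when any 1 array was left out and came to 4 with only its own groups fitted. Arrays without Dscr1 against ApoeKO, within the 5 intact arrays with Xist, gave 5, and this is not averaged over Apoe genotypes. Suturing came to 8 with only WT arrays and to 7 without both libraries of doubtful Apoe level. It came to 0 with 7 arrays and a genotype term, where both genotypes share 1 suturing change. The cause was not tested.

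The other alternatives kept each count within 1.5 times, as did the replicate block, which gave 10 for the average of Dscr1 loss and 8 for double KO against ApoeKO. The replicate numbers share only a number: between intact groups, the correlation of replicate 1 minus replicate 2 lay between -0.05 and 0.07. Among 595 values of single called keratins under the alternatives, 520 stayed past the threshold, 75 no longer passed and 0 changed sign. The average of Dscr1 loss and the interaction use all 4 groups, so fitting only the groups compared is the same fit. Suturing has no replicate numbers to block. Without calls of presence, low keratins cannot be told from background.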
